A study of Mus musculus with 4 samples.

Results

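The cells described are dendritic cells (DCs) of mouse ear-draining lymph nodes whose transcripts held a set of 6 markers: Sned1, Cavin1, Myb, Sox4, Phlda3 and Chka. A barcode was a member when at least 2 of the 6 markers were detected and their summed unique molecular identifiers (UMIs) reached 4 per 10000 gene UMIs. It also had to hold at least 500 genes, at most 10% mitochondrial UMIs, at least 1 UMI of the migratory DC genes Fscn1 and Ccr7, and no UMI of Cd3e, Cd3d, Cd3g, Cd79a or Cd79b. By this rule 3386 of 9298 DC barcodes were members, out of 15836 barcodes in all. The other 5912 DC barcodes, which met every condition but the marker one, served as the comparison and are called other DCs. The markers were chosen on these same cells, so the levels of the 6 genes in members describe the rule and are not findings.

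All mice were Tnfsf4KI/+, heterozygous for an allele in which blue fluorescent protein (BFP) reports OX40L, the costimulatory ligand that Tnfsf4 encodes. Untreated ears were compared with ears given MC903 on days 0, 2 and 4. MC903 is calcipotriol, a vitamin D analog under which skin overproduces the cytokine TSLP. Collection followed on day 5, with cells in the gate B220- CD11cint MHCIIhi sorted as 5000 BFP+ and 7000 BFP- per treatment. The pair of sorts of a treatment carried different hashtag antibodies and shared 1 capture of the 10x 3′ kit. The study therefore holds 2 captures, untreated and MC903, with 2 sorted populations in each. The sources used here do not give the number of mice pooled. With 1 library per treatment no test between treatments is possible, no p-value is given, and treatment, capture and sequencing lane cannot be told apart. Intervals are exact 95% intervals (Poisson for counts, Clopper-Pearson for shares) and cover counting error only. Ratios are on the log2 scale of CPM, the UMIs of a gene scaled to the total gene UMIs of its group.

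Migratory DCs carry antigen from the skin to the lymph node through CCR7 and bundle actin with fascin (Fscn1) as they mature. Myb and Sox4 encode transcription factors best known from haematopoietic progenitors and early lymphocytes. Sned1 encodes a secreted matrix glycoprotein, Cavin1 a coat protein of caveolae, Phlda3 a p53-induced inhibitor of AKT, and Chka the choline kinase that opens phosphatidylcholine synthesis.

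Because 2 of the markers are transcription factors and 1 is a known p53 target, promoters were searched for the MYB core AACNGTT, the SOX core AACAAAG and the 10-base p53 consensus decamer. The search covered both strands of 250-base RefSeq promoter windows of the 6 markers, of the 15 other genes most enriched in members and of 4 p53 targets. The starts used for these windows can differ from the gene positions given below, and the windows of Sned1, Cavin1 and Sox4 reach into the annotated gene. Of these 25 genes, 21 had entries in the RefSeq table (build GRCm38.p6), and Itga6, Tmem158, Ndnf and Trp53inp1 had none. No motif match overlapped a match of another motif, since no promoter held more than 1. The promoters printed are that of the only marker with a match and of 1 gene for each other motif. Matched bases are in capitals, and a window that ran past the annotated gene start was cut there (225 bases for Ccng1).
Phlda3, chr1:135765835-135766084, plus strand, MYB core: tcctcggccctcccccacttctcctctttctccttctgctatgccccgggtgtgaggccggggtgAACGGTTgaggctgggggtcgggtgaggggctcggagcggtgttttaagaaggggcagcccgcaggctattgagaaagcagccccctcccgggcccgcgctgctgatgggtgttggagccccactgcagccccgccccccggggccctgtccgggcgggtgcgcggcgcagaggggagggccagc
Prr5l, chr2:101883028-101883277, minus strand, SOX core on the opposite strand: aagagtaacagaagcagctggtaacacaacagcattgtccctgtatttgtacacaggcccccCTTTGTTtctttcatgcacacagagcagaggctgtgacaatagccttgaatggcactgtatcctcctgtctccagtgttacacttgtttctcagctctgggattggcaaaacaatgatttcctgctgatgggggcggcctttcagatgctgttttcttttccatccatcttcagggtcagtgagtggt
Ccng1, chr11:40755312-40755536, minus strand, p53 decamer: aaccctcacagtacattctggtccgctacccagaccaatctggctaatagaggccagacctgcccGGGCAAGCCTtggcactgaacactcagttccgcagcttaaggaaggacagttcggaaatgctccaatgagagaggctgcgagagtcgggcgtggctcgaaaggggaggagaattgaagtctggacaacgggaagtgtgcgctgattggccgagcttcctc
The MYB core was in 1 of the 6 marker promoters (Phlda3) and in 2 of all genes searched, the other being Tmod2, against 3.80% of 32851 mouse promoters. The SOX core was in none of the markers and in Prr5l and Fmn1, against 5.03% of all promoters. The p53 decamer was in none of the markers and in Gadd45a, Polk and Ccng1, against 7.13%. A gene counted when any of its promoters held a match, and several genes had more than 1 promoter searched. The percentages are shares of promoters, so the counts of genes are not like for like with them. A match describes letters in a window and not a bound site.

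The 2 captures differed in depth, and this bears on the rule. They held 33525154 UMIs in 9520 barcodes (untreated) and 57148072 UMIs in 6316 barcodes (MC903), of which 8422 and 5636 passed the gene and mitochondrial filters. Members had a median of 3469 UMIs in the untreated capture and 9075 after MC903, and other DCs 2455 and 10416. Of the barcode sequences, 23 occurred in both captures, and 1 of them was a member in both. Barcodes in clusters led by genes of other lineages made up 5.24% of untreated members (72 of 1374) and 11.7% of other DCs (435 of 3717), and 1.74% (35) and 3.19% (70) after MC903. Some results that these barcodes move are given with and without them, and all others include them unless stated.

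The markers sit on 5 chromosomes (GRCm38). Sned1 lies at chr1:93235841-93301065 on the plus strand and Phlda3 at chr1:135766119-135769136 on the plus strand. Myb lies at chr10:21124935-21160984, Cavin1 at chr11:100956733-100970887 and Sox4 at chr13:28948919-28953713, all on the minus strand. Chka lies at chr19:3851773-3894369 on the plus strand. All 6 are annotated as protein coding, and no pair of them overlaps.

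The label of Sned1, Myb and Sox4 fitted part of the members. Sned1, Myb and Sox4 were detected together in 57 untreated members (4.15%) and 306 MC903 members (15.2%). Sned1 or Myb was detected in 45.3% and 62.8%, and none of the 3 in 118 (8.59%) and 68 (3.38%). The most frequent combination was Sox4 with Chka and no other marker, in 381 untreated members (27.7%) and 381 MC903 members (18.9%). The set is therefore called members of the 6-marker rule, without a cell type name beyond DC.

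Most members of the shallower capture had the minimum of 2 markers. In the untreated capture 892 members (64.9%) had 2 markers, 344 had 3, 106 had 4, 28 had 5 and 4 had all 6. After MC903, 677 (33.6%) had 2 markers, 691 had 3, 418 had 4, 175 had 5 and 51 had all 6. Exactly 2 marker UMIs carried 413 untreated members (30.1%) and 41 MC903 members (2.04%). The median member held 9.40 marker UMIs per 10000 in the untreated capture and 8.24 after MC903, with maxima of 47.5 and 54.0, while other DCs held medians of 1.93 and 1.88. Just inside the threshold, between 4 and 5 per 10000, lay 102 untreated and 252 MC903 members with medians of 4.48 and 4.53. Just outside it, between 3 and 4 with at least 2 markers, lay 81 and 302 other DCs with medians of 3.42 and 3.51. A further 1085 and 212 other DCs reached 4 per 10000 with a single marker, and 1719 (33.8%) and 476 (11.3%) of all DC barcodes had no marker UMI.

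The levels of the 6 markers in members follow from the rule and are given as a description. Sned1 stood at 92.6 CPM in untreated members and 18.5 in other DCs, and at 82.1 and 21.4 after MC903. Cavin1 stood at 43.9 and 11.3 CPM in the untreated capture and at 42.3 and 9.23 after MC903. Myb stood at 56.4 and 9.27 CPM untreated and at 67.8 and 12.2 after MC903.
Sox4 and Chka carried most of the marker UMIs. Sox4 reached 370 CPM in untreated and 372 in MC903 members, against 87.3 and 70.4 in other DCs, and Chka 325 and 328, against 106 and 87.9. Phlda3 stood at 77.1 CPM in untreated and 66.3 in MC903 members, and at 16.4 and 10.6 in other DCs.

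Each marker was detected in a larger share of DC barcodes than of B cell barcodes, which served as a measure of background. Free RNA and the B cells' own transcripts cannot be told apart there. With every barcode thinned to 2000 UMIs, Sned1 was detected in 7.65% of untreated and 8.85% of MC903 DC barcodes and in 0.86% and 1.28% of B cell barcodes (116 and 312 barcodes). The median depths before thinning were 2936 and 9711 UMIs in DC barcodes and 3672 and 3197 in B cell barcodes. Sox4 was detected in 26.1% and 28.8% of DC barcodes and in 4.31% and 1.92% of B cell barcodes, and Chka in 26.2% and 27.9% against 6.03% and 5.77%. Phlda3 was in 6.89% and 7.39% of DC barcodes, against 0.86% of untreated B cell barcodes and 0 of the MC903 ones, where 3 counts of the total would be 0.96%. Cavin1 was in 4.42% and 4.86%, against 0 in the untreated B cell barcodes, where 3 counts would be 2.59%, and 0.32% after MC903. Myb had the narrowest margin in the untreated capture, at 4.88% of DC barcodes against 2.59% of B cell barcodes, and was at 8.18% against 0.32% after MC903. The untreated B cell interval, 0.54% to 7.37%, holds the DC share. T cell barcodes, which the rule leaves out, had Myb in 8.62% untreated and 7.18% after MC903 at 2000 UMIs. Their Myb levels were 70.8 and 41.3 CPM, against 25.4 and 37.2 in DC barcodes. Without thinning, Myb was detected in 21.8% of untreated and 40.1% of MC903 members, and Sned1 in 30.1% and 41.3%.

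Detection of 1 marker with another was counted over all DC barcodes at 2000 UMIs. The markers were chosen together on these cells, so the counts are a description. After MC903 all 30 ordered pairs of markers (15 pairs, each read both ways) had a higher share of 1 marker among barcodes with the other than among those without it, and untreated 24 of 30 did. Both readings of a pair always share a direction. The intervals lay apart for only 9 of the 30 after MC903 and 3 of the 30 untreated. Myb was detected in 14.4% of MC903 barcodes with Sned1 (interval 11.0% to 18.4%) and in 7.58% of those without it (6.75% to 8.47%). The same pair gave 6.03% and 4.78% in the untreated capture, with overlapping intervals. Sox4, in turn, was in 40.0% of MC903 barcodes with Myb and 27.8% of those without, and in 38.8% and 25.5% in the untreated capture, with intervals apart in both.

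Members made up a larger share of DC barcodes in the MC903 capture, and the gap was smaller at equal depth. The share was 27.0% in the untreated capture (1374 of 5091, interval 25.8% to 28.2%) and 47.8% after MC903 (2012 of 4207, 46.3% to 49.3%), 20.8 percentage points apart. At 2000 UMIs a barcode it was 17.6% (726 of 4120, 16.5% to 18.8%) and 21.4% (889 of 4156, 20.2% to 22.7%), 3.77 points apart, after leaving out 971 and 51 shallower barcodes. The intervals at equal depth did not overlap, but 1 capture stands for each treatment.

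**Figure D1:**
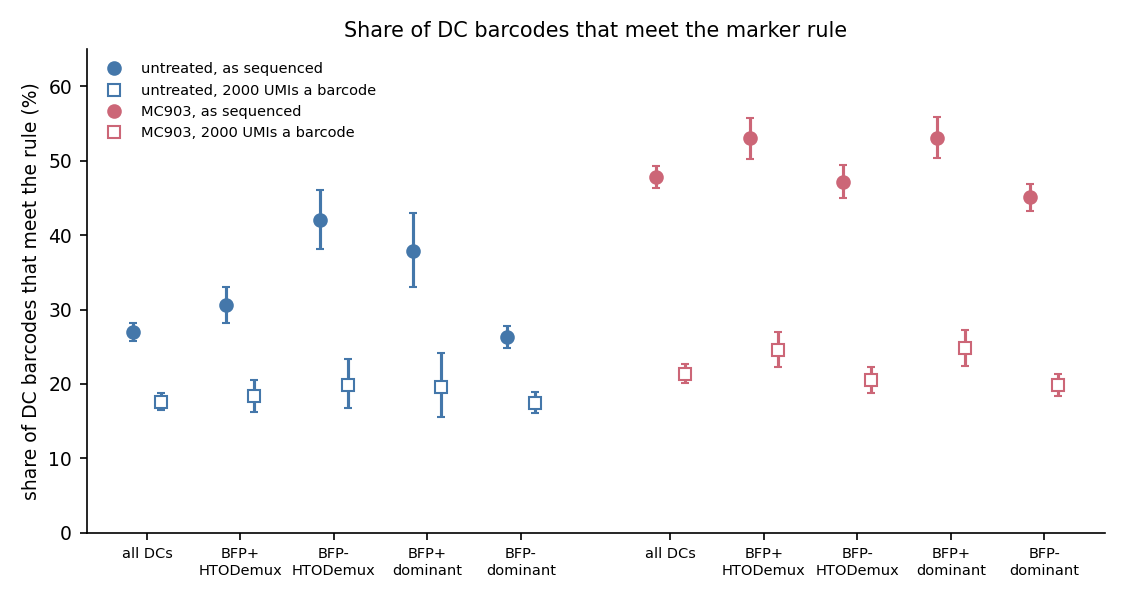
Share of DC barcodes that met the marker rule (y axis, percent) in each capture and hashtag population, as sequenced (filled circles) and at 2000 UMIs a barcode (open squares), with exact 95% intervals. The untreated and MC903 captures stand at 27.0% and 47.8% as sequenced and at 17.6% and 21.4% at equal depth.

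Whether members were more frequent among BFP+ or BFP- cells depended on the capture and on how hashtags were assigned. After MC903, 709 of 1337 BFP+ DC barcodes were members (50.3% to 55.7%), and 976 of 2068 BFP- ones (47.2%, 45.0% to 49.4%). These shares were 24.6% (22.3% to 27.0%) and 20.5% (18.8% to 22.3%) at 2000 UMIs. With each barcode given to its dominant hashtag the MC903 shares were 53.1% and 45.1%, so the direction was kept. HTODemux gave no hashtag to 2960 of 5091 untreated DC barcodes and to 705 of 4207 MC903 ones. The untreated populations are therefore a minority of the barcodes, and BFP+ outnumbered BFP- there though more BFP- cells were sorted. Among untreated DCs the share was 30.6% of BFP+ (449 of 1468) and 42.1% of BFP- barcodes (263 of 625), where members had medians of 3732 and 8941 UMIs. At 2000 UMIs these were 18.3% and 19.9%, with overlapping intervals. By dominant hashtag the untreated order turned, to 37.9% of BFP+ (146 of 385) and 26.3% of BFP- barcodes (913 of 3470), and to 19.6% and 17.5% when thinned. The untreated capture thus gave no stable order of the populations.

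Clusters found without the genes of the rule placed many MC903 members in 2 groups of DCs. In cluster 7, led by Dclk1, Map6d1, Gadd45a, Clmn and Psd3, 489 of 567 MC903 barcodes were members (86.2%, 83.1% to 89.0%), and 81 of 112 untreated ones (72.3%, 63.1% to 80.4%). In cluster 4, led by Cxcl10, Gpr65, Galc, Slc2a3 and Slc25a33 and with Efnb2 in 7th place, 552 of 788 MC903 barcodes were members (70.1%, 66.7% to 73.2%), and 88 of 138 untreated ones (63.8%, 55.2% to 71.8%). Together these clusters held 51.7% of MC903 members (1041) and 14.3% of other DCs, but only 12.3% of untreated members (169) and 2.18% of untreated other DCs. Both were small in the untreated capture, at 2.20% and 2.71% of its DC barcodes, and larger after MC903, at 13.5% and 18.7%.
Elsewhere members were spread through most DC clusters. Among clusters outside other lineages and with at least 100 DC barcodes in the capture, cluster 15 (Mucl1, Ccl24, Aldh1a2) was next. It had 59.7% members after MC903 (50.3% to 68.6%, overlapping the interval of cluster 4) and 41.6% untreated. Cluster 11 (Thy1, Myl7, Il1r1, Dll4, Tnfsf4) followed with 41.6% and 36.1%. Clusters 14, 9, 2 and 8 ranged from 24.9% to 36.0% after MC903. The cluster with the largest share of untreated members was cluster 0 (Adgre4, Fxyd2, Ms4a4b), with 42.3% of them, and 25.8% of its untreated barcodes were members (581 of 2251). At a clustering resolution of 1.2 the fullest cluster held 16.2% of untreated members. The lowest share among DC clusters of the untreated capture was 12.6% in cluster 16, led by the cDC1 genes Xcr1 and Clec9a. All shares by cluster are as sequenced, and the clusters differed in depth. Untreated medians were 7683 UMIs in cluster 7, 7674.5 in cluster 4, 2503 in cluster 0 and 2907 in cluster 16. After MC903 clusters 7 and 4 had medians of 8467 and 8964.5, against 9668 in all DC barcodes. No share by cluster at equal depth is given.

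**Figure D2:**
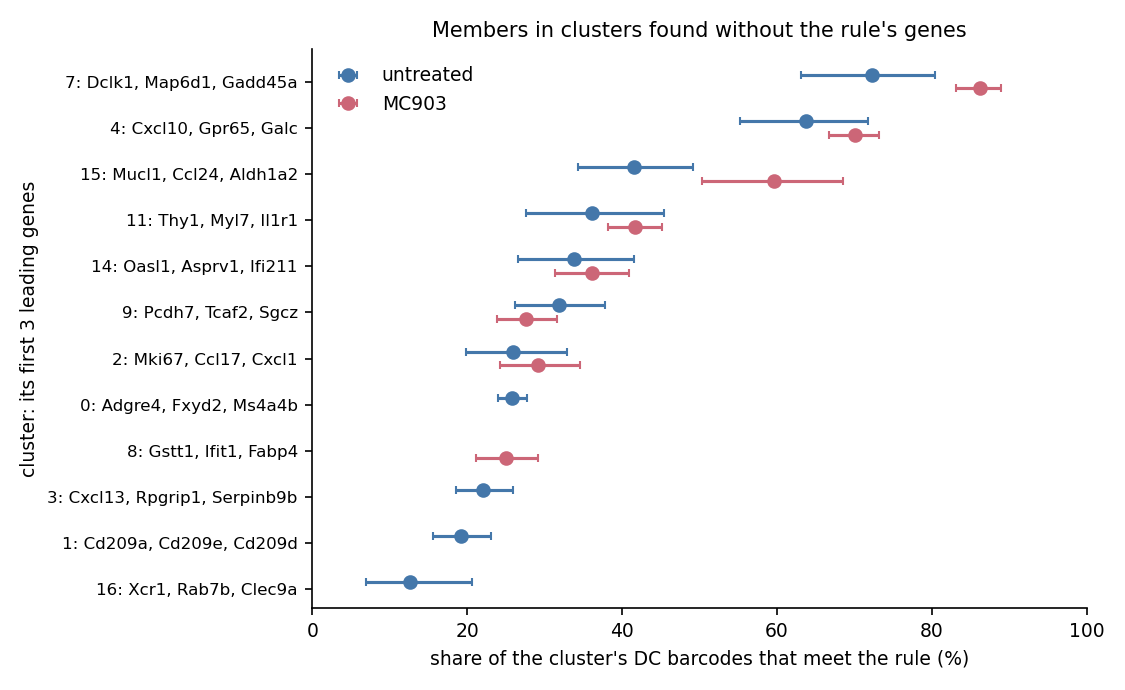
Share of each cluster's DC barcodes that met the marker rule as sequenced (x axis, percent, with exact 95% intervals), in each capture. Clusters are named by their first 3 leading genes. Those of other lineages, and those with fewer than 100 DC barcodes in a capture, are not shown for it. Cluster 7 stands apart at 86.2% after MC903. Cluster 4 follows at 70.1%, with an interval that overlaps that of cluster 15 (59.7%).

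The clusters differed in which markers they carried. In cluster 7 after MC903, Sned1 stood at 139 CPM, Myb at 98.1 and Chka at 429, and in cluster 4 at 65.8, 71.5 and 155. Sox4 stood at 390 CPM in cluster 7 and 298 in cluster 4, and Cavin1 at 60.6 and 45.7. Phlda3 was the marker with the higher value in cluster 4, at 77.6 against 69.5 CPM. Ccr7, the receptor that guides DCs to the lymph node, stood at 1759 CPM in cluster 7 and 5240 in cluster 4, and at 1410 and 4896 in the untreated capture. Untreated, Sned1 stood at 159 CPM in cluster 7 and 77.7 in cluster 4, so the order held there too.

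Outside the 6 markers, few genes separated untreated members from other DCs and more did so after MC903. Genes with at least 20 CPM on the higher side and a 1.5-fold ratio were called. Untreated, 24 of 5029 genes were higher in members (0.477%) and 92 lower (1.83%). After MC903, 175 of 4902 were higher (3.57%) and 216 lower (4.41%). The captures shared 12 of the higher genes and 40 of the lower genes, and 74.8% of 4693 genes measured in both had the same direction. Scaling by TMM in place of total UMIs gave 117 higher and 279 lower genes after MC903, and 18 and 101 untreated. Without barcodes of other lineages the counts were 24 higher and 62 lower untreated, with 18 of the 24 and 56 of the 92 still called, and 170 and 212 after MC903, with 167 of the 175 and 200 of the 216 still called. As members were picked from these cells, all ratios against other DCs describe these libraries.

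By the rule for named genes, 15 genes higher in members of both captures are given. Il9r, the interleukin-9 receptor, stood at 37.7 CPM in untreated members and 19.7 in other DCs, and at 29.5 and 16.9 after MC903 (log2 0.94, interval 0.68 to 1.19, and 0.80, 0.62 to 0.99). Itga6, the α6 integrin chain of laminin receptors, stood at 29.8 and 17.3 untreated and at 67.0 and 31.9 after MC903 (log2 0.79 and 1.07). Gadd45a, a growth arrest gene induced by DNA damage, stood at 23.2 and 13.7 untreated and at 35.2 and 11.5 after MC903 (log2 0.76, 0.44 to 1.08, and 1.62, 1.41 to 1.82). The Gadd45a intervals of the captures did not overlap, and its MC903 ratio was the highest of the 15 named genes.
Ndnf, a secreted neurotrophic factor, stood at 90.4 and 60.3 CPM untreated and at 98.8 and 41.1 after MC903. Tmem158 stood at 125 and 74.6 untreated and at 51.4 and 31.1 after MC903 (log2 0.74 and 0.72). The other 10 were Tmod2, which caps actin filaments, the mTORC2 partner Prr5l, Fam193b, the lectin gene Clec2i, St6gal1, Arhgef12, the formin Fmn1, Rufy3, Lrch1 and the ubiquitin ligase Trim7. Their log2 ratios ranged from 0.56 (Trim7) to 0.78 (Tmod2) untreated and from 0.57 (Rufy3) to 0.95 (Clec2i) after MC903.

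**Figure D3:**
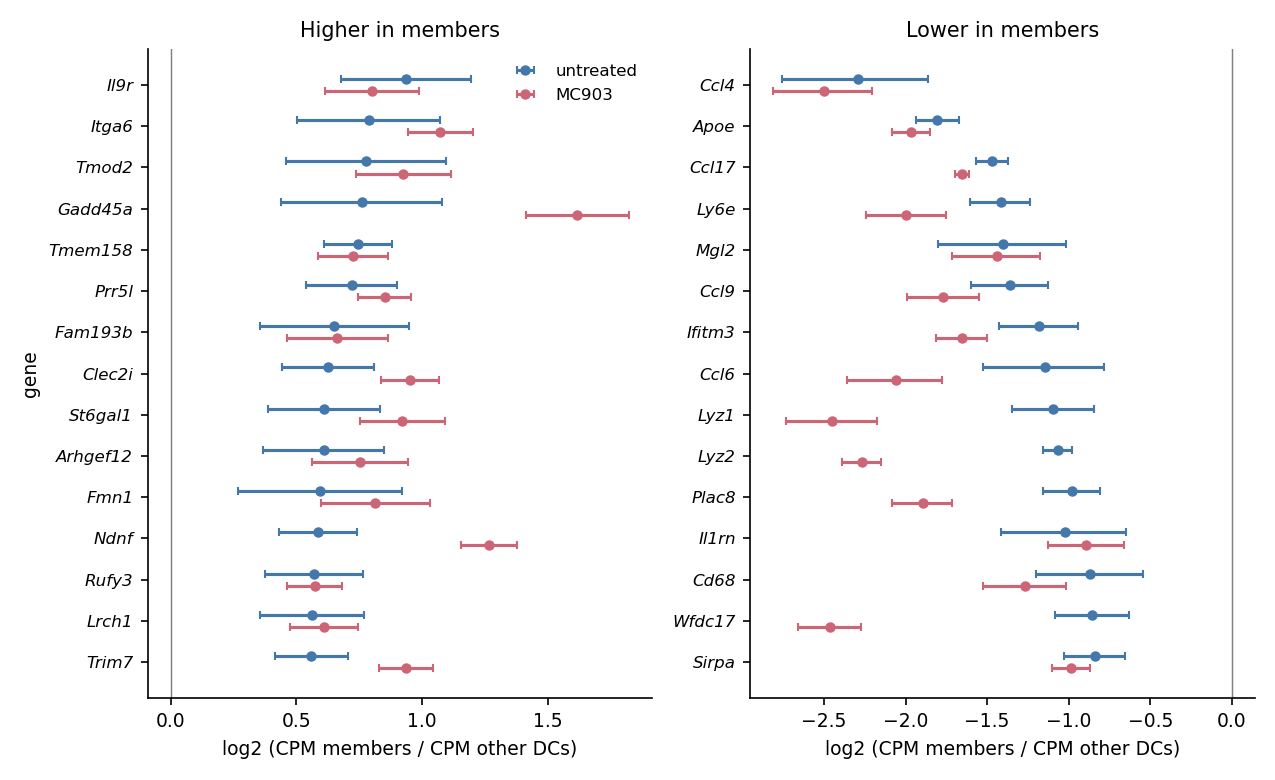
Log2 ratio of CPM in members over CPM in other DCs (x axis) for the 15 genes named higher and the 15 named lower, with exact 95% intervals, in each capture. Gadd45a and Ndnf lie further to the right after MC903 (1.62 and 1.26), and Ccl4, Apoe and Ccl17 lie below −1.4 in both captures. Other lineages are included.

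Genes lower in members included chemokines and genes of monocytes and type 2 DCs. Ccl17, a chemokine that attracts CCR4-bearing T cells, stood at 152 CPM in untreated members and 420 in other DCs, and at 264 and 831 after MC903 (log2 −1.47, −1.57 to −1.38, and −1.65, −1.70 to −1.61). Ccl17 kept these ratios without other lineages, at −1.55 and −1.68. Ccl4 stood at 7.05 and 34.5 untreated and at 5.41 and 30.7 after MC903, where 1 barcode held 72.6% of the member UMIs. Mgl2 and Sirpa, markers of type 2 conventional DCs, had log2 ratios of −1.40 and −0.84 untreated and −1.44 and −0.99 after MC903. These values include other lineages, and their direction was kept without them.
Apoe, the lipoprotein gene abundant in macrophages, and the lysozyme gene Lyz2 depended more on the other lineages. Lyz2 stood at 193 CPM in untreated members and 404 in other DCs, and at 32.8 and 158 after MC903, with log2 ratios of −1.07 and −2.27 that became −0.39 and −1.41 without other lineages. Apoe stood at 80.3 and 281 CPM untreated and at 37.6 and 147 after MC903, and its ratios without other lineages were −0.65 and −1.58. Lyz1, whose sequence is close enough to Lyz2 for counting to split reads between them, had −0.71 and −1.24 without other lineages. The remaining lower genes were Ly6e, Ccl9, Ifitm3, Ccl6, Plac8, Il1rn, Cd68 and Wfdc17, with log2 ratios from −1.42 to −0.86 untreated and from −2.46 to −0.89 after MC903.

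Monocyte and macrophage genes were lower in members, by less without the clusters of other lineages. All 5 measured genes of the 11-gene list were lower in untreated members and both measured ones after MC903, and the list summed to 286 CPM in members and 614 in other DCs untreated and to 69.9 and 233 after MC903. Without other lineages 1 of 2 measured genes was lower untreated and the single measured one after MC903, and the sums were 209 and 276 CPM, and 63.2 and 127. The 8 B cell genes outside the rule summed to 98.7 and 150 CPM untreated and to 26.2 and 33.5 after MC903, and to 91.7 and 126, and 25.8 and 31.5, without other lineages. The 10 T cell genes outside the rule summed to 211 and 231 CPM untreated and to 167 and 133 after MC903, where none of the 2 measured genes was higher and 1 was lower (median log2 −0.15). The 7 neutrophil genes summed to 111 and 190 CPM untreated, or 2.29 and 9.56 without other lineages. After MC903 no neutrophil gene reached 20 CPM, with sums of 7.65 and 0.88, or 0.67 and 0.48 without other lineages. Summed levels of the natural killer and innate lymphoid list (221 and 192 CPM), the haematopoietic progenitor list (192 and 164) and the Langerhans list (227 and 213) were also higher in members after MC903. These sums rest on few measured genes. Under TMM scaling 0 of 2 natural killer and innate lymphoid genes were higher (median log2 −0.05) and 0 of 1 progenitor gene (0.17). For the Langerhans list 1 of 2 was (0.06).
The type 2 DC list had 4 of 5 measured genes lower in untreated members (median log2 −1.40) and 2 of 3 after MC903 (−0.99). The type 1 list had 2 of 4 (−0.60) and 0 of 2 (−0.19), and the counts of both lists include other lineages. Over all genes 1.83% were lower untreated and 4.41% after MC903, which also stand beside the monocyte and macrophage counts. The 8-gene migratory DC list had no gene past 1.5-fold in either capture (medians 0.12 and −0.03). In the 10-gene haematopoietic progenitor list only Flt3, a cytokine receptor gene, reached 20 CPM outside the rule, at 175 and 163 CPM untreated and 178 and 150 after MC903, and 3 genes of that list were at 0 in untreated members. Fibroblast, endothelial and keratinocyte lists summed to 27.6, 35.1 and 11.5 CPM in untreated members and to 9.90, 30.7 and 11.9 in MC903 members.

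Several p53 targets were higher in members, with larger ratios after MC903. Of the 18 p53 targets listed, 13 reached 20 CPM. After MC903, 5 were at least 1.5-fold higher in members and none lower, with a median log2 ratio of 0.54 against 0.06 over all genes, of which 3.57% were higher and 4.41% lower. Untreated, 1 was higher and none lower (median 0.31 against 0.04), beside 0.477% and 1.83% of all genes. Trp53inp1, a stress-induced p53 cofactor, stood at 66.0 CPM in MC903 members and 23.4 in other DCs (log2 1.49), and at 72.2 and 52.8 untreated (0.45). The polymerase gene Polk had log2 ratios of 1.09 after MC903 and 0.53 untreated, the cyclin G gene Ccng1 0.97 and 0.46, and the apoptosis gene Bbc3 0.90 and 0.28. Cdkn1a, the cell cycle inhibitor most often read as a p53 target and named here after its values were seen, was at 493 and 494 CPM after MC903 and at 523 and 515 untreated. Under TMM scaling 5 of 12 measured targets were higher after MC903, with a median of 0.46. Phlda3, which is in the rule, is a p53 target itself and was not counted.

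Some immediate early genes, which cells induce within minutes of a stimulus, were higher in MC903 members. Of 15 immediate early and heat shock genes, 5 were at least 1.5-fold higher after MC903 and none lower (median log2 0.37), while untreated none passed in either direction (median 0.04). Over all genes 3.57% were higher and 4.41% lower after MC903, and 0.477% and 1.83% untreated. Jun stood at 761 CPM in MC903 members and 456 in other DCs (log2 0.74), and at 462 and 327 untreated (0.50). Fos, Fosb and the heat shock gene Hspa1b, whose reads may be shared with its near copy Hspa1a, had 0.70, 0.66 and 0.65 after MC903 and 0.27, 0.15 and 0.24 untreated. Under TMM scaling 2 of the 15 were higher and 1 lower after MC903 (median 0.29).

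Several cytokine, costimulation and survival genes were lower in members. Of the cytokine and chemokine genes measured, 4 of 15 were lower and none higher in untreated members (median log2 −0.34), and 6 of 14 lower and 2 higher after MC903 (−0.54). Lower calls over all genes came to 1.83% and 4.41%, and higher ones to 0.477% and 3.57%, which also stand beside the lists that follow. The 2 higher genes, named after their values were seen, were Ccl5 (0.78) and Cxcl10 (0.82), whose untreated ratios were 0.11 and 0.01. The neutrophil attractants Cxcl1 and Cxcl2 had −0.99 and −1.06 after MC903 and −0.23 and −0.34 untreated. Cd40, the costimulatory receptor for CD40L, stood at 276 CPM in untreated members and 444 in other DCs (−0.69), and at 197 and 450 after MC903 (−1.19).
Within the 20-gene DC maturation list, 1 of 19 was lower untreated (Cd40) and 1 higher and 3 lower of 20 after MC903. The higher gene was the interleukin-15 receptor gene Il15ra (0.75), and besides Cd40 the lower ones were Pdcd1lg2 (−0.89) and Cd86 (−0.66). The survival list had 1 of 12 lower untreated and 3 of 12 after MC903. Bcl2l1, the gene for BCL-XL, had −0.69 and −1.19, and Bcl2a1b and Bcl2a1d, near copies whose reads counting may split, had −0.80 each after MC903. Of 10 measured MHC class II genes, 1 was lower untreated and 1 higher after MC903 (medians −0.11 and −0.16).

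Other pathways gave mixed counts. Of the genes of the TSLP receptor and its STAT5 targets, 1 of 11 was lower untreated and 3 of 11 after MC903, with medians of 0.09 and −0.07. Cish, a feedback inhibitor induced by STAT5, had −1.41 after MC903, and Socs3 −1.39. Cell cycle genes were lower in 3 of 7 measured in each capture (medians −0.50 and −0.34), with Ccnd2 at −0.69 untreated and −1.70 after MC903. Progenitor transcription factors had 0 of 9 past 1.5-fold untreated and 1 higher after MC903, Bcl11a at 0.67. Notch pathway genes had 1 of 4 lower untreated, Jag1 at −0.59, and 2 of 4 after MC903, Dll4 at −1.15 and Jag1 at −0.76.
Choline and phospholipid synthesis genes had none of 6 past 1.5-fold untreated and none of 7 after MC903 (medians 0.01 and −0.17). Of the 9 caveola genes only Pacsin2 reached 20 CPM, with log2 ratios of 0.20 and 0.15. Matrix and adhesion genes had 1 of 7 higher and 2 lower untreated and 1 of 4 lower after MC903 (medians −0.08 and −0.21). TGF-beta pathway genes had 2 of 9 and 1 of 8 lower (medians −0.15 and −0.06), and interferon-stimulated genes 1 of 4 lower in each capture, Isg15 at −0.79 and −1.83.

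Levels of these genes were also read by the number of markers in a barcode at equal depth. The genes were named for their difference between members and other DCs of these cells, so their order over the groups is a description. DC barcodes outside other lineages were thinned to 2000 UMIs and grouped by 0, 1, 2 or at least 3 markers detected, giving 1670, 1474, 581 and 111 untreated and 1673, 1513, 664 and 209 MC903 barcodes. After MC903 Trp53inp1 stood at 30.2, 51.9, 63.3 and 117 CPM over these groups, and Itga6 at 36.2, 44.0, 70.8 and 100.5. Ndnf stood at 52.6, 73.0, 113 and 127 CPM, and Gadd45a at 15.5, 28.1, 42.2 and 43.1. Il9r (23.6, 31.7, 32.4 and 16.7 CPM) and Lrch1 (38.9, 48.9, 54.2 and 40.7) had lower values again at 3 markers or more. These rest on 7 and 17 UMIs, with intervals that overlapped those at 2 markers. Untreated, both genes had their highest value at 3 markers or more, at 49.5 and 54.1 CPM on 11 and 12 UMIs.
Ccl17 and Cd40 ran the opposite way in both captures. Ccl17 stood at 717, 385, 284 and 98.1 CPM after MC903 and at 407, 299, 222 and 117 untreated, and Cd40 at 410, 250, 197 and 81.3 after MC903 and at 451, 360, 295 and 225 untreated. Untreated, Trp53inp1 showed no such order, at 47.6, 67.2, 60.2 and 63.1 CPM, nor did Gadd45a, at 14.1, 16.3, 25.0 and 18.0. The last values of these 2 genes rest on 14 and 4 UMIs, and the Gadd45a interval ran from 4.91 to 46.1. Trim7 was higher with more markers in both, from 65.9 to 144 CPM untreated and from 59.5 to 146 after MC903.

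**Figure D4:**
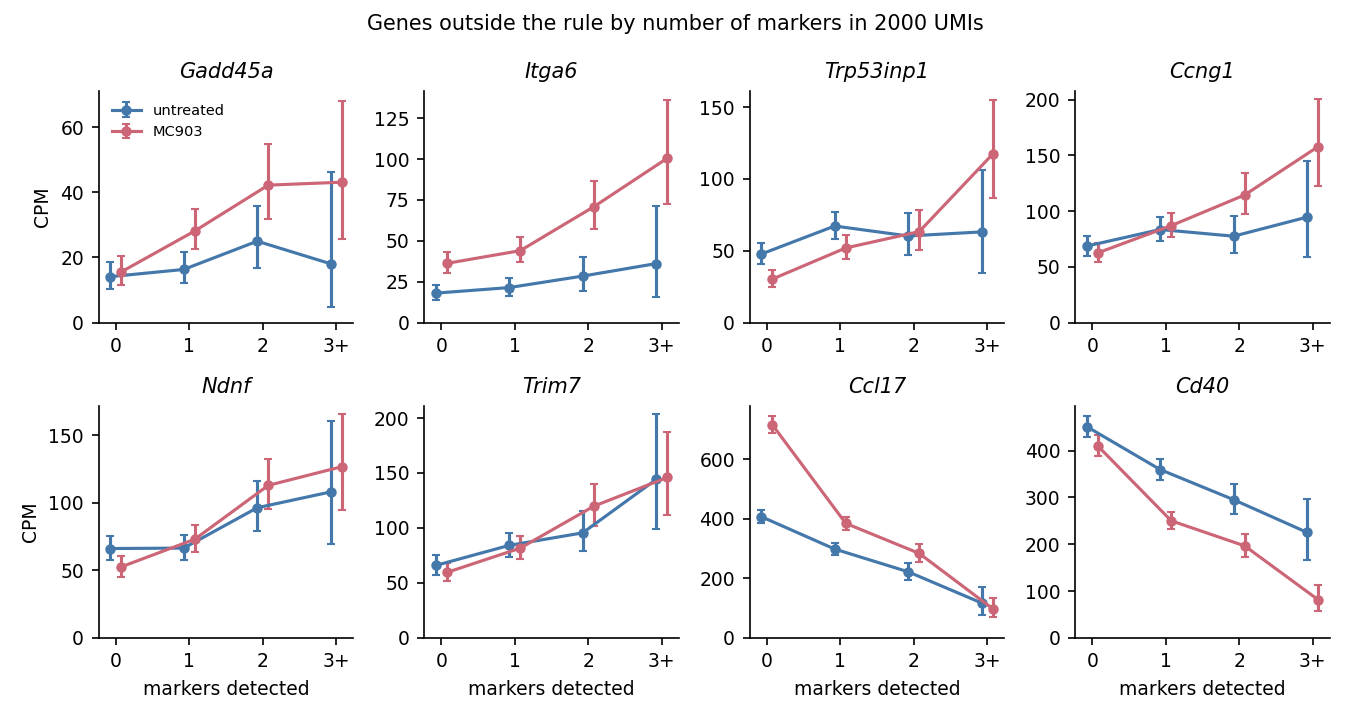
CPM of genes outside the rule (y axes, with exact 95% intervals) by the number of the 6 markers detected in 2000 UMIs (x axes), in each capture, without other lineages. Ccl17 and Cd40 are lower with each added marker in both captures, and Trp53inp1 goes from 30.2 to 117 CPM after MC903.

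Some differences held within the clusters and others lay between them. After MC903 Trp53inp1 was higher in members inside cluster 4 (log2 0.97), inside cluster 7 (0.68) and outside both (1.21), each with an interval above 0. Itga6 likewise had 0.54, 0.61 and 0.42. Ccl17 had −0.54, −1.04 and −1.36 and Cd40 −0.50, −0.63 and −0.84. Gadd45a, a leading gene of cluster 7, had 0.68 there and 1.40 outside both clusters, but 0.23 with an interval from −0.20 to 0.69 inside cluster 4. The Il9r difference lay outside the clusters, at 0.99 (0.76 to 1.22), and was −0.05 inside cluster 4 and −0.18 inside cluster 7, with intervals that spanned 0.

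Between captures, most named genes differed in the same direction in members and in other DCs. In members 157 of 5032 genes were called higher after MC903 (3.12%) and 200 lower (3.97%), and in other DCs 320 of 4999 higher (6.4%) and 377 lower (7.54%). TMM scaling, which moved the median of all genes by 0.10 in members and 0.18 in other DCs, gave 236 higher and 147 lower genes in members and 578 and 197 in other DCs, so the balance of higher and lower calls depends on the scaling. Treatment and capture cannot be told apart in any of these.

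Among genes higher in MC903 members were costimulatory ligands. Cd80 and Cd86, ligands of CD28, stood at 253 and 391 CPM in MC903 members and at 88.8 and 142 in untreated members, with log2 ratios of 1.51 and 1.47, and 1.52 and 1.89 in other DCs. Thy1 stood at 28.9 and 3.67 CPM (2.98, and 2.63 in other DCs). The phospholipase gene Pla1a, the myosin kinase gene Mylk, Hopx, the serotonin receptor gene Htr7, the calcium-binding Tesc and Pkib ranged from 1.60 to 2.17 in members and from 1.56 to 2.93 in other DCs, and Syn3 stood at 23.7 and 8.37 CPM in members. Smr3a (2.34) and Chia1 (1.56) completed the 12, both products of salivary or similar glands, and 92.5% and 98.0% of their untreated member UMIs came from 1 barcode.
Genes lower after MC903 included 2 that lead cluster 0 and several of macrophages. Adgre4, which leads cluster 0, stood at 1.63 CPM in MC903 members and 25.0 in untreated members (log2 −3.93), and Fxyd2, also of cluster 0, at 44.9 and 236. Lyz2 stood at 32.8 and 193 CPM (−2.56, against −1.35 in other DCs). Rnase6, Cd209d, Ms4a6c, Scube3, Cxcl1, Ly6e and Mpeg1 ranged from −3.06 to −2.11. These ratios include other lineages. Cluster 17, which holds macrophage genes, had 35 untreated and 1 MC903 members, and cluster 1, led by Cd209a, had 86 and 5. Whether levels differed within a cluster was not tested. The neutrophil genes S100a9 (−4.14) and S100a8 (−3.75) rested on 1 barcode with 73.2% and 71.4% of the untreated member UMIs.
Of the p53 targets, 0 of 13 passed 1.5-fold between captures in members (median 0.03), and in other DCs 1 of 12 was higher and 3 lower (median −0.33), beside 6.4% and 7.54% of all genes. Under TMM scaling other DCs had 1 higher and 1 lower (median −0.15). The difference between members and other DCs was not tested. Cish had a log2 ratio of 2.16 in members and 3.18 in other DCs.

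**Figure D5:**
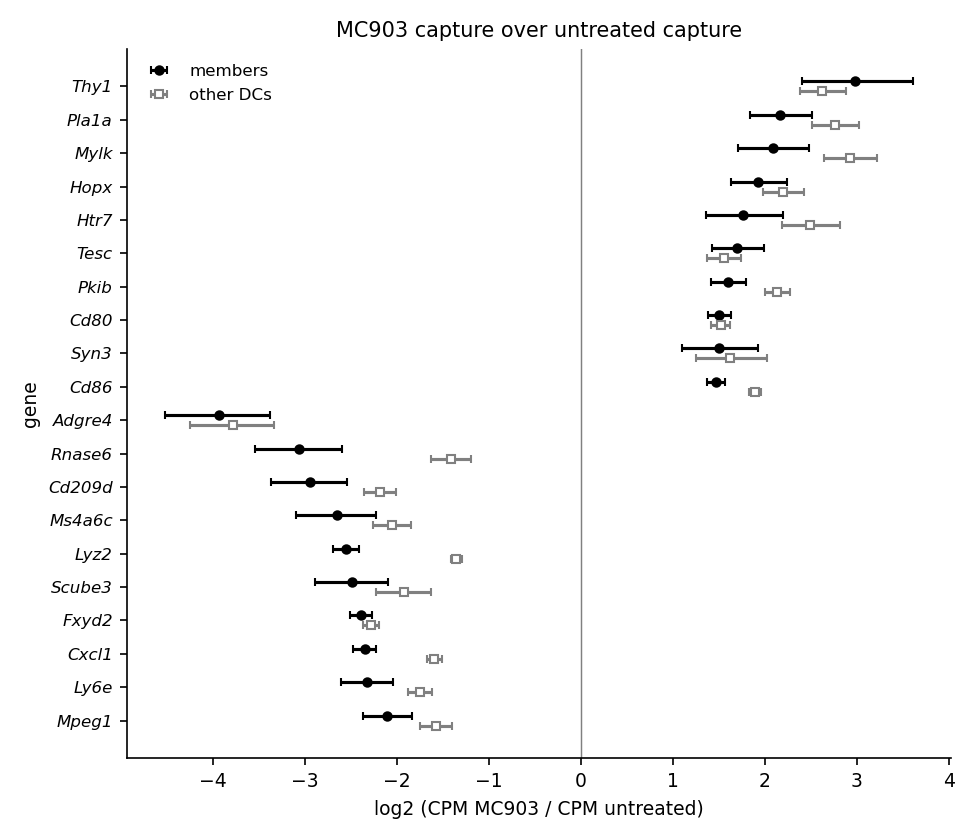
Log2 ratio of CPM in the MC903 capture over the untreated capture (x axis), in members (filled) and in other DCs (open), with exact 95% intervals. The genes are those named in this comparison except Smr3a, Chia1, S100a8 and S100a9, which are not shown. Most genes lie on the same side in both, for instance Thy1 at 2.98 and 2.63 and Adgre4 at −3.93 and −3.78.

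BFP+ members held more of the reporter, of Tnfsf4 and of most MHC class II transcripts than BFP- members. The sort was on BFP, which reports Tnfsf4, so the BFP and Tnfsf4 differences were set up by it. After MC903, 73 of 4887 genes were called higher in BFP+ members (1.49%) and 96 lower (1.96%). Untreated, 173 of 5175 were higher (3.34%) and 237 lower (4.58%), with the hashtag doubt given above. The BFP transcript stood at 77.9 CPM in BFP+ and 6.45 in BFP- members after MC903 (log2 3.59), and Tnfsf4, which encodes OX40L, at 23.6 and 2.71 (3.13). Untreated, Tnfsf4 stood at 23.2 and 2.49 CPM (3.22). The myosin light chain gene Myl7 (29.5 and 2.71 CPM), the neuregulin gene Nrg1 (55.8 and 19.1), Thy1 and the GTPase gene Rac2 were also higher in BFP+ members, the last 3 by 1.51 to 1.54.
MHC class II genes, whose products present peptides to CD4 T cells, were higher in BFP+ members of both captures. Of the 10 measured, 9 were at least 1.5-fold higher and none lower in each capture, with a median log2 ratio of 0.88 after MC903 and 1.37 untreated, against −0.02 and −0.04 over all genes. The 11-gene list summed to 31555 CPM in BFP+ and 18997 in BFP- members after MC903 and to 29974 and 14115 untreated. Ciita, the transactivator of these genes, stood at 161 and 68.5 CPM after MC903 (1.24) and at 118 and 29.1 untreated (2.02), and the exception was H2-Eb2 (0.20 and −0.05). By dominant hashtag 8 of 10 were higher after MC903 (median 0.81) and 9 of 10 untreated (1.19). TMM scaling gave 9 of 10 in each.
Lower in BFP+ members after MC903 were Smagp (−2.67), Apol10b (−2.23), the protease gene Asprv1 (−2.22), Apol7c, Xlr (−2.04) and the protease inhibitor gene Serpinb1a (−1.89). Apol7c stood at 214 CPM in BFP+ and 906 in BFP- members, and its reads may be shared with other genes of the apolipoprotein L family. In the untreated capture these 6 had the same sign, from −1.33 to −0.51. Smagp, Apol10b and Asprv1 are leading genes of cluster 14, which held 146 MC903 members. Thy1, Myl7 and Tnfsf4, higher in BFP+ members, are leading genes of cluster 11, which held 328. Whether BFP+ and BFP- members differed within a cluster was not tested.
Members as a whole were not richer in OX40L transcripts than other DCs. Tnfsf4 stood at 10.4 CPM in untreated members and 9.35 in other DCs, and at 11.0 and 16.0 after MC903. Among MC903 BFP+ barcodes alone it stood at 23.6 CPM in members and 40.1 in other DCs, and BFP at 77.9 and 138.

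Members were counted among DC barcodes with UMIs of gene pairs that mark neighbouring DC states. After MC903, 513 of the 799 DC barcodes with UMIs of both Efnb2 and Slamf1 were members (64.2%, 60.8% to 67.5%), and these made up 25.5% of members and 13.0% of other DCs. At 2000 UMIs 33.6% of such barcodes were members (50 of 149, 26.0% to 41.7%), against 21.4% of all DC barcodes. Untreated, the shares were 38.7% as sequenced and 26.5% at 2000 UMIs (17.4% to 37.3%), an interval that holds the 17.6% of all untreated DC barcodes. DC barcodes with both Thy1 and Dll4 were members in 28.6% after MC903 (62 of 217) and in 12.5% at 2000 UMIs (6 of 48). Those with Tesc and Tubb2b were members in 40.4% (324 of 801) and in 12.2% at 2000 UMIs (24 of 196, 8.01% to 17.7%), below the 21.4% of all MC903 DC barcodes. Untreated, 35.5% of the 124 barcodes with Tesc and Tubb2b were members, against 27.0% of all DC barcodes, and 18.2% at 2000 UMIs, against 17.6%.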

How the data were processed

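For 2 captures the authors deposited counts of UMIs (genes) and of hashtag tags in each barcode. The file headers name Cell Ranger 3.1.0, and the submitters' processing notes name GRCm38 (mm10). A matrix has 22631 gene rows. The members, gene lists and named-gene rules were chosen with earlier results of these data known.

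Barcodes were filtered by the rule given above. Hashtags were assigned with HTODemux (Seurat 5.3.0, R 4.3.3, quantile 0.99). DC barcodes were clustered in Python 3.11.15 with scanpy 1.11.5 (Leiden resolution 0.8, 30 components, 15 neighbours, 2000 variable genes, rule genes left out). UMIs were summed by group and scaled to CPM by total UMIs, with TMM as an alternative (checked against edgeR 4.0.16). Intervals came from scipy 1.17.1. A gene was called at 20 CPM or more on the higher side and 1.5-fold apart. Clusters with at least 3 markers of another lineage at 4 times their level elsewhere, and 1 cluster with the salivary gene Bpifa2, counted as other lineages. Scrublet called 0 doublets in each capture and so did not work, and no doublet was removed. A DC and lymphocyte doublet is dropped where the lymphocyte gave a Cd3 or Cd79 UMI.

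Named genes, each with UMIs in at least 5 barcodes of the higher side, were the 15 each way with the largest smaller ratio of the 2 captures, the 12 each way for treatment, the 6 each way for the BFP sorts after MC903, up to 4 of each list and the 10 leading genes of the main cluster. The calculations were tested on simulated data. Thinning drew 2000 UMIs a barcode without replacement. Alternatives are given in the closing section.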

Additional observations from a re-analysis of the deposited data

Results flagged for a closer look

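The difference in member share between BFP+ and BFP- barcodes had opposite signs in the captures, −11.5 percentage points untreated and 5.83 after MC903. This difference between captures was not tested. By dominant hashtag the untreated value was 11.6 and the MC903 value 8.05, and at 2000 UMIs they were −1.58 and 4.07.

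The direction between captures was opposite in members and other DCs for 2 of the named genes, and the difference was not tested. Efnb2 had a log2 ratio of MC903 over untreated of 0.54 in members (interval 0.42 to 0.66) and −0.33 in other DCs (−0.44 to −0.22). Efnb2 is a leading gene of cluster 4, which held 6.40% of untreated members and 27.4% of MC903 members. Whether Efnb2 differed between captures within that cluster was not tested. Wfdc17 had −1.22 in members (−1.49 to −0.95) and 0.39 in other DCs (0.26 to 0.52).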

How the results depend on the processing

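No paired analysis was possible because each group has 1 library. Of 108 recomputed counts and shares 48 moved. All 1148 recomputed gene ratios (96 genes and comparisons, 14 settings) kept their direction, 209 of them outside their interval. These were the genes picked for the largest ratios, read on largely the same cells, so a kept direction was likely from the outset. Genes named only from the lists, Tnfsf4 and BFP were not among them. Shares of members are given for all untreated, untreated BFP+, untreated BFP-, all MC903, MC903 BFP+ and MC903 BFP- barcodes in this order where all moved. They were 17.6%, 18.3%, 19.9%, 21.4%, 24.6% and 20.5% at 2000 UMIs, 22.6%, 25.0%, 31.8%, 35.4%, 39.7% and 34.2% at a threshold of 6 per 10000, and 9.47%, 11.7%, 22.4%, 31.7%, 35.6% and 32.1% with 3 markers. A threshold of 3 gave 28.6% untreated, 48.5% untreated BFP-, and 55.0%, 61.3% and 54.6% for the MC903 sets. At most 5% mitochondrial UMIs gave 33.2% of untreated BFP+ and 47.0% of BFP-, at least 1000 genes 34.7% of untreated and 37.4% of untreated BFP+, 5 UMIs of Fscn1 and Ccr7 29.7% of untreated, leaving out other lineages 28.4%, and dominant hashtags 37.9% of untreated BFP+ and 26.3% of BFP-. Genes called between untreated members and other DCs (116) became 206 with 3 markers, 76 with 5 Fscn1 and Ccr7 UMIs and 179 when thinned. Genes called between captures (357) became 726 and between BFP sorts (169) 996 when thinned. A minimum of 10 CPM gave 258 untreated and 621 MC903 genes against other DCs and 596 between captures, and 50 CPM gave 40, 206 and 178. The cluster with most members held 42.3% of untreated and 27.4% of MC903 members, 55.1% and 31.5% at resolution 0.5, 16.2% and 23.5% at 1.2, and 31.7% and 24.3% with the markers kept. The cause was not tested. Fewer UMIs are summed when thinned, which widens counting error. Leaving out Scrublet doublets was not run because it called 0, and the 6% of highest scores were left out instead, an alternative chosen after seeing the data, as was leaving out other lineages. Leaving out replicates was not possible with 1 library a group.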
